A study of Mus musculus with 2 samples.

Results

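A set of 10 immediate early genes was followed through single-cell RNA sequencing of the adult mouse dentate gyrus (DG): the AP-1 subunits Fos, Fosb, Fosl2, Jun, Junb and Jund, the transcription factors Egr1 and Atf3, the nuclear protein gene Ier2 and the MAP kinase phosphatase gene Dusp1. They were taken by symbol from the deposited tables, where all 10 were found among 32285 genes, and they were chosen by their measured levels across the clusters in earlier results of these same cells. All 12 deposited clusters and both libraries were used. Differences between clusters are given as descriptions, since these genes helped to form the clusters.

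Cells were sorted for EYFP from the DG of 5 pooled WT mice (NestinCreERT2;VEGFWT/WT;ROSA-STOP-EYFP) and 5 pooled iKD mice (NestinCreERT2;VEGFfloxed;ROSA-STOP-EYFP, labelled KO). Every mouse, controls included, carried the tamoxifen (TAM)-inducible Cre under the Nestin promoter and the EYFP reporter that Cre switches on, so that by label the groups differ in the floxed VEGF alleles. TAM was injected at 180 mg/kg/d for 5 d, starting at 7 to 10 wk of age, and tissue was taken 21 d later. With 1 library per genotype there was no test between genotypes, and every interval below covers counting error only.

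The WT library held 5543 cells with a median of 8051 unique molecular identifiers (UMIs, counts of captured RNA molecules) per cell, and the iKD library held 5261 cells with a median of 7080. The names of the clusters went against their markers. In the 8 clusters named qNSC1, qNSC2, aNSC, NSPCs, IPC1, IPC2, eNB and NB, each of 10 microglia markers was found in 88.8% to 100% of cells, whereas 9 neural stem cell markers were each found in at most 1.97%. Deposited names are therefore used as labels alone. The targeted gene, Vegfa, had 101 UMIs over 5283 WT cells of these 8 clusters (82.3 to 123) and 52 UMIs over 5009 iKD cells (38.8 to 68.2), too few to check the label of single cells. Female cells, called by Xist without Y-linked genes, made up 57.6% of the WT and 70.9% of the iKD cells of the 8 clusters. IPC2 was almost wholly male in WT, with 9 female and 1067 male cells, whereas eNB was almost wholly female, with 988 female and 36 male cells. Of the barcodes, 9 occurred in both libraries.

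Immediate early genes are transcribed within minutes of a stimulus without new protein synthesis, and their RNAs are short-lived. MAP kinase signalling reaches them through serum response factor and through CREB, which binds the cyclic AMP response element (CRE). FOS and JUN family proteins pair through leucine zippers to form AP-1, which binds its own DNA site. In microglia, as in many cell types, these genes are also known to be induced while tissue is dissociated and sorted. Here tissue was dissociated mechanically, with a cell sort before capture, and how much of the measured RNA was made during handling was not tested.

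Promoter sequence was searched because CREB and serum response factor are known to act close to the start of such genes. It is shown for the 5 genes in which the core of the CRE was found, whatever their level in any cluster. RefSeq promoter windows (GRCm38.p6) were available for 8 of the 10 genes, Egr1 and Ier2 being the others. The letters TGACG, the core of the CRE, were searched on both strands in the 250 bases before each start. They were found in 5 of the 8 windows, those of Fos, Fosb, Junb, Atf3 and Dusp1, and in 17.9% of all 27025 windows of that length. Stretches of 60 bases are printed 5′ to 3′ on the strand of the gene, with the match in capitals.
Fos: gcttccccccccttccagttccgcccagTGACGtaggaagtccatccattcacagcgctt
Fosb: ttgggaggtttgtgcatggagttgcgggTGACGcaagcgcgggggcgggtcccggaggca
Junb: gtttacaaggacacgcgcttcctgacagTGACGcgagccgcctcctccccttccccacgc
Atf3: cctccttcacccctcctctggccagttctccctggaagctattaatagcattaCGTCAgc
Dusp1: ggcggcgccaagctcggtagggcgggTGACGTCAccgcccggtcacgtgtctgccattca
The Fos stretch is chr12:85473796-85473855 on the plus strand. On the minus strand, the Fosb stretch is chr7:19310074-19310133, the Junb stretch chr8:84978823-84978882, the Atf3 stretch chr1:191183334-191183393 and the Dusp1 stretch chr17:26508582-26508641. Each lies just before the RefSeq start of its gene. The Atf3 and Dusp1 stretches also lie inside the span that GENCODE gives these protein-coding genes on the same build, 191170296 to 191218039 and 26505590 to 26562128, and the other 3 lie outside theirs. The full palindrome TGACGTCA, which contains TGACG on both strands, was found only in the Dusp1 window of the 8 and in 1.62% of all windows. Neither the AP-1 letters TGACTCA, present in 4.43% of all windows, nor the serum response element's CArG box, present in 1.40%, was found in any of the 8. Bases more than 250 before a start were not searched, so sites farther upstream would not be seen. The windows of Jun, Jund and Fosl2 held none of these motifs. The Jund window is counted from a RefSeq start that lies upstream of the GENCODE start of the gene.

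Of the 8 clusters NB, with 959 cells, had the lowest level of all 10 genes. The other 7 clusters lay within 1.28-fold of each other for Egr1 and within 4.48-fold for Fosb. The level is the mean over cells of UMIs per 10,000 UMIs of the cell. The 10 levels summed to a mean of 135 per 10,000 UMIs in eNB, the highest of the 12 clusters, and to 40.3 in NB. Over the 8 clusters together the sum was 113, or 1.13% of all UMIs.

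**Figure D1:**
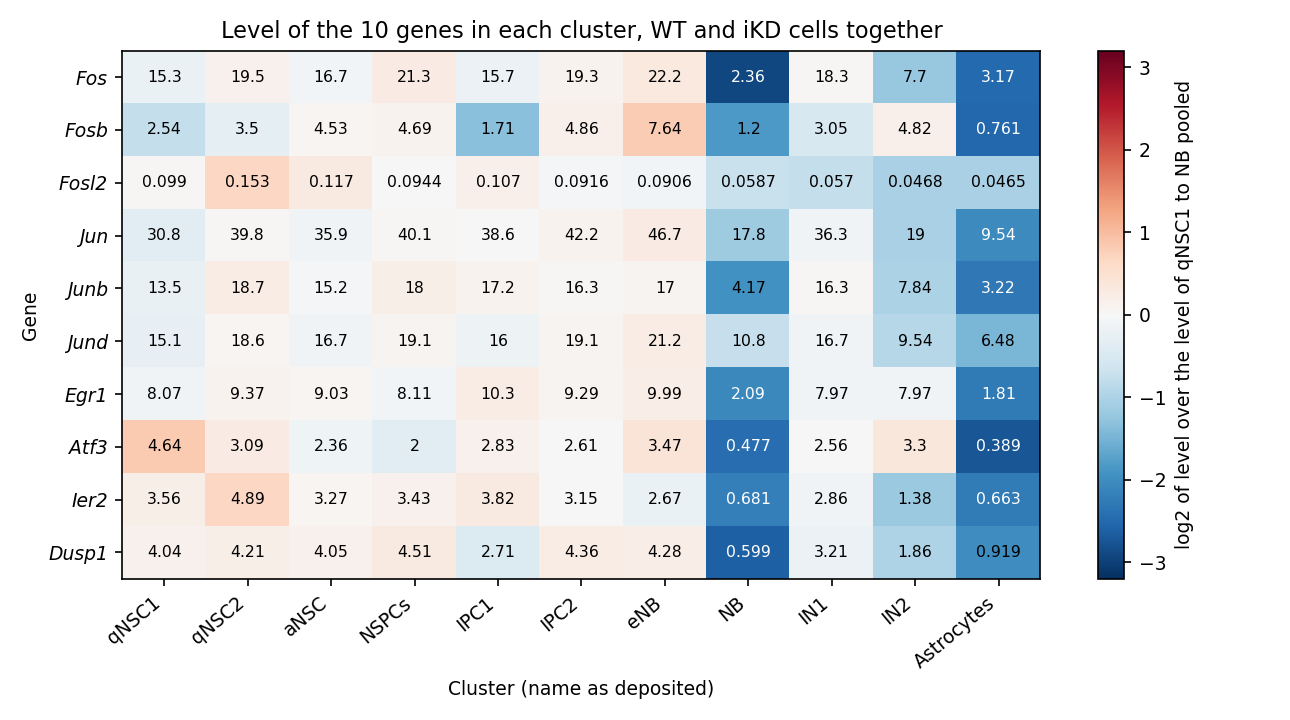
Level of each of the 10 genes (rows, UMIs per 10,000 UMIs, printed in each cell) in 11 clusters (columns, names as deposited), WT and iKD cells together, with colour for the log2 of the level over the level of qNSC1 to NB pooled. The NB column is the lowest of qNSC1 to NB in every row, at 2.36 for Fos, 17.8 for Jun and 0.0587 for Fosl2.

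The Fos family encodes the AP-1 subunits that bind DNA only with a partner. Fos, its founding member, stood between 15.3 in qNSC1 and 22.2 in eNB in the 7 clusters other than NB, and at 2.36 in NB. In NB the WT level was 2.03 and the iKD level 2.68, while the levels of the other 7 clusters ran from 14.5 in WT IPC1 to 23.0 in iKD eNB. The order of those 7 was less firm, since neighbours overlapped between genotypes: eNB ran from 21.4 in WT to 23.0 in iKD, and NSPCs from 20.1 to 22.7. After each cell was thinned to 4500 UMIs, so that depth was equal, 33.8% of NB cells (30.7 to 37.1) and 96.9% of eNB cells (96.1 to 97.6) had a Fos UMI. Fosb, whose protein lasts longer in some isoforms, varied more than Fos among the clusters outside NB. Its level was 7.64 in eNB, between 2.54 and 4.86 in qNSC1, qNSC2, aNSC, NSPCs and IPC2, and 1.71 in IPC1, which is not far above the 1.20 of NB. In female cells alone Fosb stood at 7.56 in eNB and 1.74 in IPC1. Fosl2 was near the limit of detection, at 0.0587 in NB and between 0.0906 and 0.153 in the other 7, and 768 of its UMIs were found in 10292 cells.

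Jun, the partner that also pairs with itself, was detected in nearly all cells outside NB. Its level ran from 30.8 in qNSC1 to 46.7 in eNB and was 17.8 in NB. Of the thinned NB cells 82.0% had a Jun UMI (79.3 to 84.5), so NB cells still held Jun RNA, at a lower level. Junb, an AP-1 subunit that can restrain Jun, differed from the other Jun genes in its order of clusters. It was highest in qNSC2 at 18.7, followed by NSPCs at 18.0, IPC1 at 17.2 and eNB at 17.0, and was 4.17 in NB. Jund, which is expressed without a stimulus in many tissues, had the smallest gap of the Jun genes. Its level was 10.8 in NB (9.75 in WT and 11.9 in iKD) and ran from 15.1 in qNSC1 to 21.2 in eNB.

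Egr1, a zinc finger factor induced through serum response factor, was nearly level across the clusters outside NB, between 8.07 in qNSC1 and 10.3 in IPC1. NB stood at 2.09, from 1.65 in WT and 2.52 in iKD. Atf3, a stress-induced CREB family factor, was highest in qNSC1 at 4.64, where the WT level was 5.15 and the iKD level 4.22. The next was eNB at 3.47, the lowest outside NB was NSPCs at 2.0, and NB was at 0.477. Ier2 was highest in qNSC2 at 4.89 and lowest outside NB in eNB at 2.67, so eNB was not the top cluster for every gene. Its NB level was 0.681. Dusp1, which switches MAP kinases off again, lay between 4.04 and 4.51 in 6 clusters, at 2.71 in IPC1 and at 0.599 in NB. A Dusp1 UMI was found in 17.7% of thinned NB cells (15.2 to 20.5) and in 54.9% to 74.6% of those of the other 7 clusters.

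Set against the other 7 clusters pooled, the NB level was 8.24-fold lower for Fos, 6.67-fold lower for Dusp1, 5.87-fold lower for Atf3, 4.93-fold lower for Ier2 and 4.48-fold lower for Egr1. It was 4.09-fold lower for Junb, 3.85-fold for Fosb, 2.32-fold for Jun, 1.73-fold for Jund and 1.70-fold for Fosl2. Fosl2 was below the minimum level of 0.5, which Atf3 reached through the other clusters alone, and of the other 9, 8 were lower in NB by at least 2-fold, beside 90 of 4078 genes tested in all (2.21%). The median log2 difference of the 10 genes was -2.09, beside 0.10 over all genes tested. Ranked from the lowest, Fos was the third of the 4078, after Gm32296 and the chemokine gene Ccl4, Dusp1 was the sixth and Atf3 the tenth. The median depth of NB cells, 6652 UMIs, was below the 7622.5 of the 8 clusters together, and its 10 microglia markers summed to 391 per 10,000 UMIs beside 388 over the 8 clusters. All 10 genes were lowest in NB also in WT cells alone, in iKD cells alone, in male cells and in thinned cells, and 9 were in female cells, where Fosl2 was lower in aNSC (0.0578) than in NB (0.0671).

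Genes with TGACG in the promoter window had the larger gaps, as a description made after both were seen. Their log2 differences between NB and the other clusters were -3.04 for Fos, -2.72 for Dusp1, -2.53 for Atf3, -2.03 for Junb and -1.94 for Fosb. Those of the 3 genes whose windows lacked it were -1.21 for Jun, -0.79 for Jund and -0.68 for Fosl2. Egr1 and Ier2, which had no window, were at -2.16 and -2.28, farther below 0 than Junb and Fosb. Among genes other than the 10, TGACG was found in 24 of 57 windows (42.1%) of those at least 2-fold lower in NB and in 986 of 3241 windows (30.4%) of all those tested. Whether the motif had a part in the NB levels was not tested.

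NB was mixed within itself. The summed level per cell had a median of 34.2 per 10,000 UMIs and quartiles of 9.38 and 64.1, and 27 of the 959 cells had no UMI of any of the 10 genes. In eNB the lowest cell was at 39.2. The standard deviation of the sum was 33.4 in NB, 35.3 in eNB and 41.9 in qNSC1, around means of 40.3, 135 and 97.6. A spread of that size was therefore not particular to NB. Below 50 per 10,000 lay 63.7% of NB cells and 8.29% of the cells of the 8 clusters together.

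**Figure D2:**
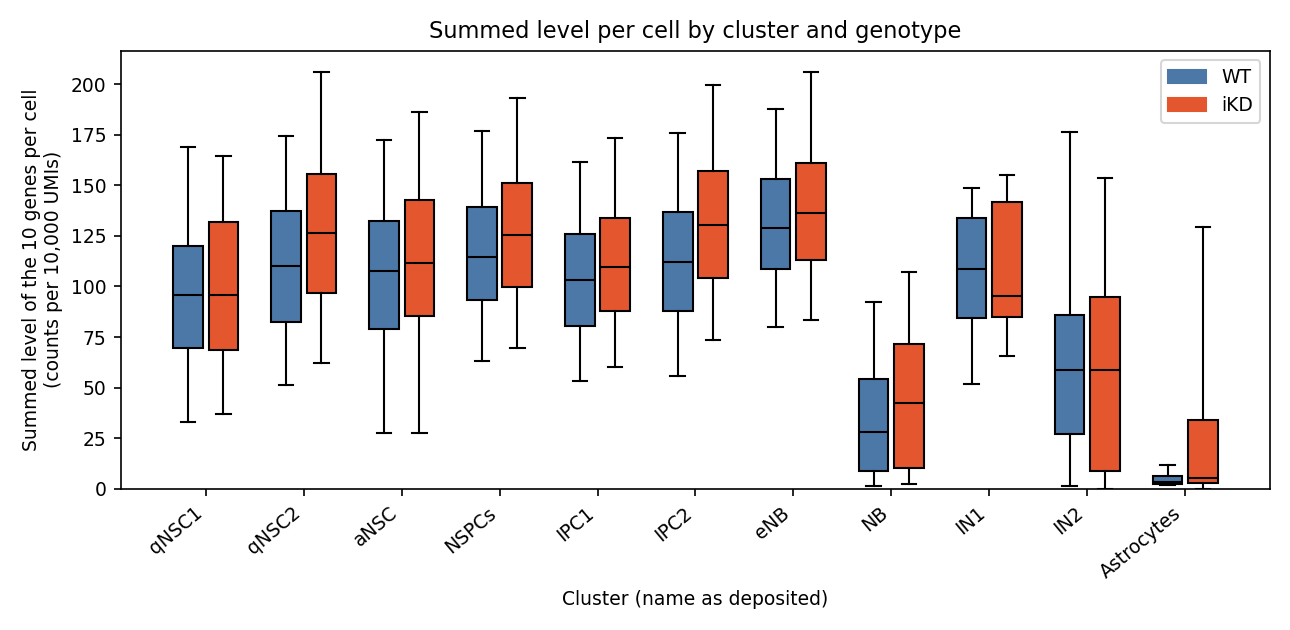
Summed level of the 10 genes per cell (y axis, UMIs per 10,000 UMIs) by cluster (x axis) and genotype (colour), with the median as the line, the quartiles as the box and the 5th and 95th percentiles as whiskers. The NB boxes, with medians of 28.2 in WT and 42.6 in iKD, lie below those of the other 7 large clusters.

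At the other end, 4 of the 9 genes exceeded the other 7 clusters in eNB by at least 0.32 on the log2 scale, beside 97 of 3933 genes tested (2.47%). Fosb was the farthest above, with a log2 difference of 1.15, followed by Atf3 at 0.56, Fos at 0.41 and Jun at 0.33. Ier2 was lower in eNB, at -0.27. The eNB cells were also the deepest of the 8 clusters, with a median of 8304 UMIs.

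The 4 smaller clusters spread widely. IN1, with 50 cells, resembled the large clusters, with a summed mean of 107, and IN2, with 288 cells at a median depth of 3102.5 UMIs, had 63.4. The cluster named Astrocytes had a median of 5.04 and a mean of 27.0, and its cells carried choroid plexus markers, 8 of 8 in over 50% of cells. Its 134 cells, 130 of them iKD, fell apart by microglia markers. The 56 cells with at least 5 of the 10 had a summed mean of 58.9, and the 78 cells with fewer had 4.09, of which Jund gave 3.21. In those 78 cells Fos was at 0.137, Egr1 at 0.0222 and Jun at 0.314, whereas in the 56 cells they were at 7.4, 4.29 and 22.4. The choroid plexus transcript Ttr was high in both sets, at 819 per 10,000 UMIs in the 56 cells and 1162 in the 78. The 40 cells of the undefined cluster, all with at least 5 microglia markers but a median depth of 2572.5 UMIs, had a summed mean of 7.79.

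How often the genes were found together in the same cell was measured in thinned cells. A median of 7 of the 10 genes had a UMI per cell over the 8 clusters, 8 in eNB and 4 in NB. At most 4 genes were found in 63.0% of NB cells (59.7 to 66.3) and in 0.326% of eNB cells (0.131 to 0.670). At least 9 were found in 21.5% of eNB cells (19.7 to 23.3), in 8.78% of IPC1 cells (7.56 to 10.1) and in 1 of 857 NB cells.

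**Figure D3:**
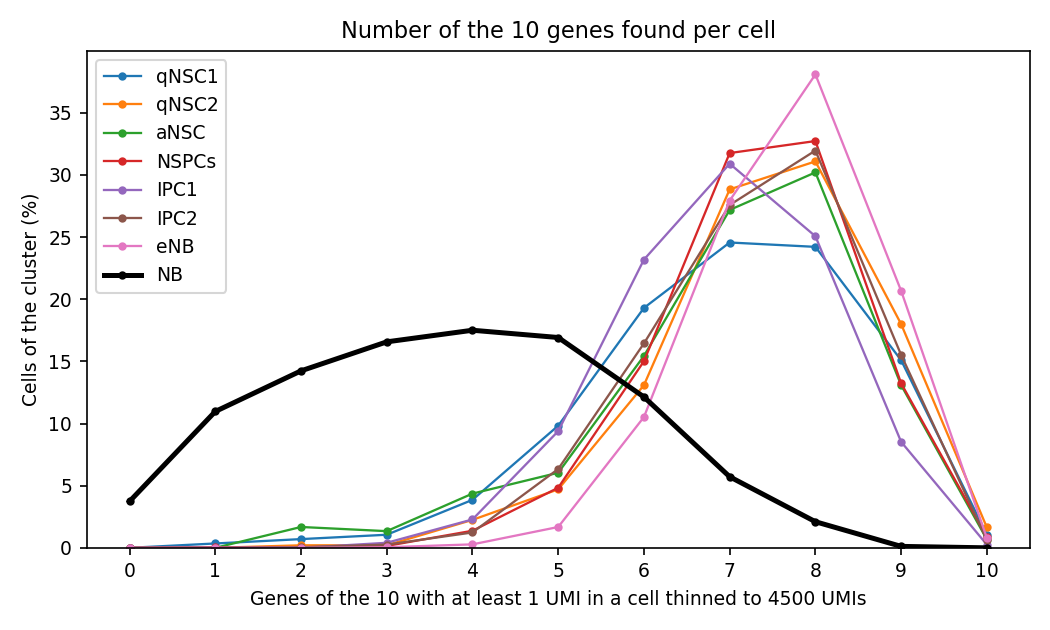
Share of cells (y axis, %) by the number of the 10 genes with at least 1 UMI (x axis) in cells thinned to 4500 UMIs, 1 line for each of the 8 clusters qNSC1 to NB. The NB line peaks at 4 genes, with 17.5% of its cells, and the other 7 lines peak at 7 or 8.

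Within a cluster and genotype, detection of pairs of genes was weakly related. The phi coefficient, a correlation of presence and absence, was averaged over 16 groups of cluster and genotype, and its median over the 45 pairs was 0.0592. It was highest for Jun with Jund at 0.197 and for Fos with Fosb at 0.159, both pairs of 1 family, followed by Fosb with Dusp1 at 0.137 and Fos with Egr1 at 0.124. Values for pairs with Fosl2 lay near 0, down to -0.0101 with Egr1. Within each genotype, the median phi was highest in NB, at 0.115 in WT and 0.143 in iKD, and lowest in eNB, at 0.00769 and 0.0109, where most genes were found in nearly every cell. In thinned NB cells Fos and Egr1 occurred together in 18.0% (15.5 to 20.7), beside 12.3% from the product of their shares. These values share library and depth, and a phi of this size in sparse counts is no finding on its own.

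Levels were then compared between genotypes over the 8 clusters pooled, so that the assignment among these 8 did not enter, though the choice of the 8 did. Levels in iKD cells were higher for 8 of the 10 genes, by small amounts, beside 54.4% of all genes tested. For Junb and Fosl2 they were about equal. Fos stood at 16.8 in WT and at 18.9 in iKD, which is 0.17 as a log2 ratio (0.15 to 0.18). Ier2 went from 2.88 to 3.35, the highest ratio of the 10 at 0.22 (0.18 to 0.26). Atf3 had a ratio of 0.15, Egr1 of 0.14, Dusp1 of 0.13, and Jun and Jund of 0.12 each. The Jun level was 37.5 in WT and 40.8 in iKD. Junb was at 15.9 in WT and 15.8 in iKD, with a ratio of -0.01 (-0.02 to 0.01). The median of the 10 ratios was 0.129, beside 0.0078 over all 3894 genes tested. Over all 12 clusters that median was 0.109.

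Counting error alone did not cover these differences. The counting interval lay above 0 for 8 of the 9 genes tested, beside 892 of 3894 genes (22.9%), so an interval above 0 was common among all genes. None of the 9 was higher by at least 0.32 on the log2 scale, as 7 of the 3894 genes were (0.18%). In thinned cells, the share of cells with at least 9 of the 10 genes was 12.3% in WT (11.4 to 13.2) and 16.1% in iKD (15.1 to 17.2). Spread between mice or libraries was not measured. The 8 choroid plexus markers differed between the libraries too, and summed to 0.153 per 10,000 UMIs in WT and 10.7 in iKD cells of the 8 clusters. Whether these came from free RNA or from mixed cells was not tested. Leaving Ttr, sex-linked and mitochondrial genes out of the denominator gave a median of 0.130, and leaving out the barcodes found in both libraries gave 0.129.

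**Figure D4:**
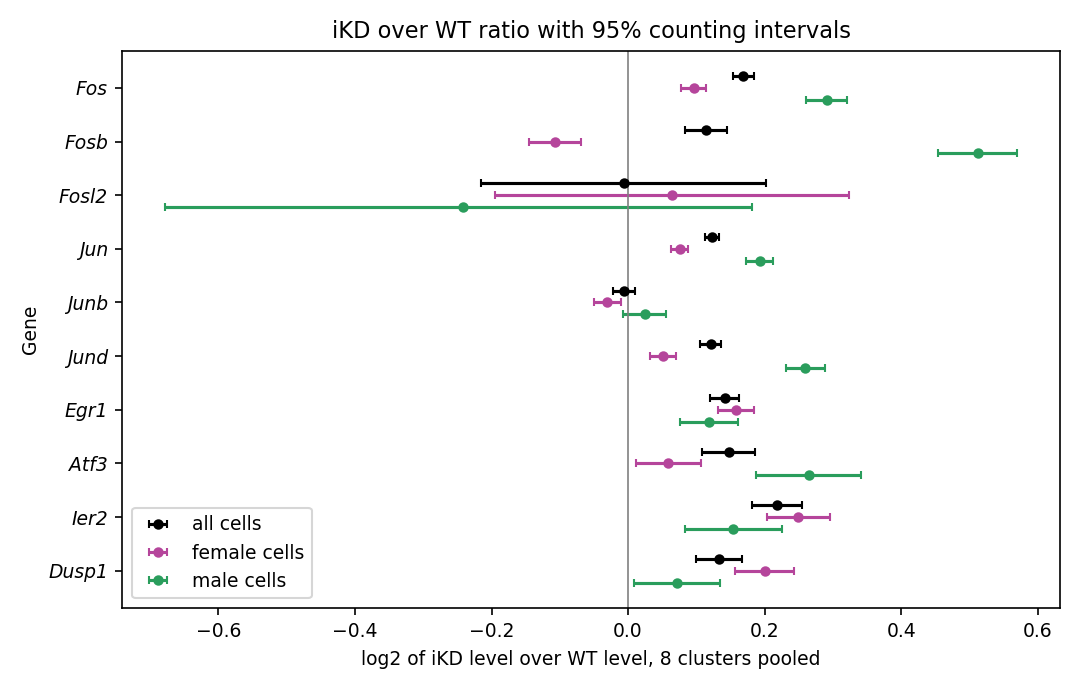
Log2 of the iKD over the WT level (x axis) of each gene (y axis) over qNSC1 to NB pooled, with 95% counting intervals, for all cells (black), female cells (magenta) and male cells (green). Fosb lies at 0.11 in all cells, at -0.11 in female cells and at 0.51 in male cells, and Fosl2 has the widest intervals.

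Several ratios differed in size between the sexes. Female cells had a median of 0.0699 over the 10 genes and male cells 0.174. Fosb was the extreme: in female cells it was 4.57 in WT and 4.24 in iKD (log2 -0.11, -0.14 to -0.07), and in male cells 3.62 in WT and 5.16 in iKD (0.51, 0.45 to 0.57). Jund had 0.05 in female and 0.26 in male cells, and Fos 0.10 and 0.29. Dusp1 ran the other way, at 0.20 in female and 0.07 in male cells. The mice of each sex were pooled within a library, and the sexes fell unequally over the clusters, so the ratios were also read by sex within clusters, of which 6 had values for both. For Fosb the male ratio was above the female one in 6 of 6, and the intervals did not overlap in 4. It was 0.37 in female and 1.64 in male cells of qNSC2, -0.03 and 0.36 in NSPCs, 0.01 and 0.30 in eNB, and -0.08 and 1.09 in NB. No female interval for Fosb lay below 0 in any of the 7 clusters with a female value, so the lower female level in iKD exceeded counting error in the pooled cells alone. Jund, like Fosb, had the higher ratio in male cells in 6 of 6 clusters, 4 of them without overlap, whereas Fos had it in 4 of 6 and Dusp1 in 3 of 6. Male cells of IPC2, where WT had 9 female cells, gave a Fosb ratio of 0.50 (0.43 to 0.57). No difference between the sexes was tested.

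Within clusters, the median ratio of the 10 genes was above 0 in 7 of the 8 clusters. It was 0.46 in NB, 0.20 in IPC2, 0.19 in qNSC2, 0.15 in NSPCs, 0.11 in IPC1, 0.08 in eNB, 0.07 in aNSC and -0.03 in qNSC1. Jun, Jund, Egr1 and Ier2 had a ratio above 0 in all 8 clusters, and Fos in 7, qNSC1 being the exception at -0.07. Junb had 4 clusters whose interval lay below 0, of which qNSC1 was the farthest at -0.14 (-0.24 to -0.04). Atf3 was lower in iKD in qNSC1 at -0.29 (-0.46 to -0.11) and in IPC1 at -0.18 (-0.26 to -0.09), while in NB it was at 0.77.

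**Figure D5:**
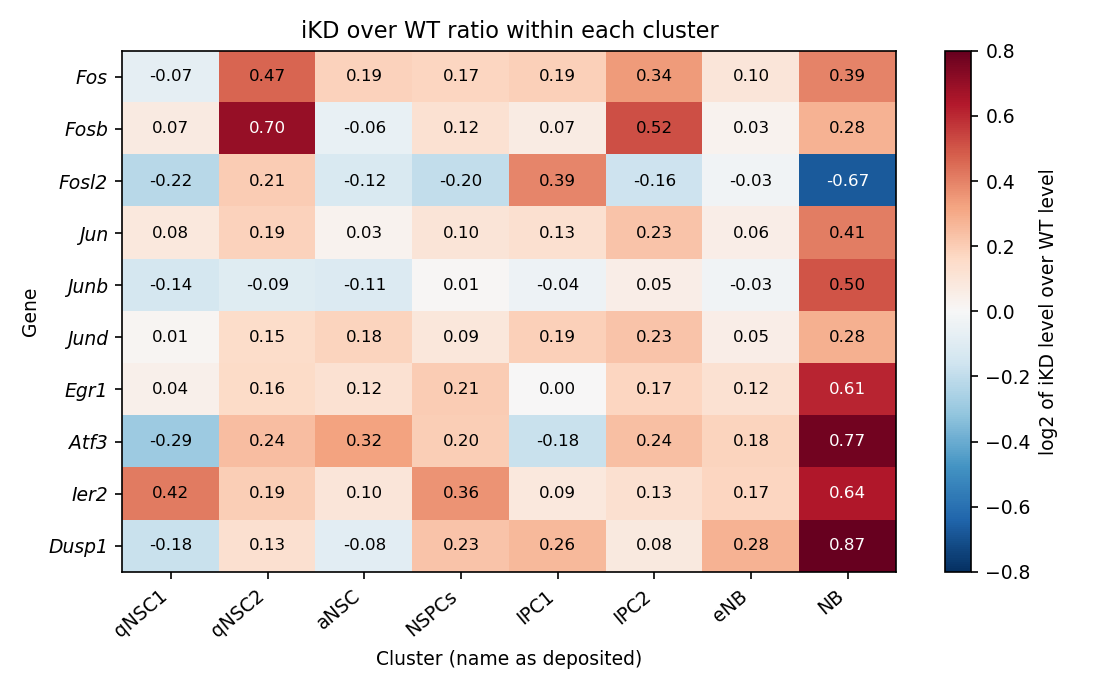
Log2 of the iKD over the WT level (printed and coloured, with colour ending at 0.8) for each gene (rows) within each of the 8 clusters (columns). The NB column holds positive values from 0.28 to 0.87 for every gene but Fosl2, which is at -0.67 from 42 UMIs.

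NB, the cluster with the lowest levels, had the largest ratio of the 8 for 7 of the 10 genes, Fos, Fosb and Fosl2 being the exceptions. Dusp1 was 0.419 in NB cells of WT and 0.773 in those of iKD (log2 0.87, 0.56 to 1.18), and Atf3 was 0.349 and 0.601 (0.77, 0.43 to 1.11). Ier2 had 0.64, Egr1 0.61, Junb 0.50, Jun 0.41, Fos 0.39, and Jund and Fosb 0.28 each. The interval lay above 0 for 9 of 9 genes, beside 9.22% of all 4090 genes tested in NB, and 7 were higher by at least 0.32 on the log2 scale, beside 2.89%. Of these, Dusp1 and Atf3 reached the minimum level of 0.5 through iKD alone, where they were higher, so these counts are a description. By sex the NB median was 0.245 in 291 WT and 349 iKD female cells and 0.918 in 151 WT and 97 iKD male cells. Fos in NB was nearly equal between genotypes in female cells, at 2.4 in WT and 2.46 in iKD (0.04, -0.14 to 0.22), and was 1.40 and 2.97 in male cells (1.09, 0.76 to 1.42). Median depth in NB was 7117.5 UMIs in WT and 6173 in iKD. Since the clusters were drawn with these genes, a different assignment of low cells to NB in each library cannot be told apart from a different level.

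In IPC2 all 9 tested genes had an interval above 0, beside 14.3% of 3958 genes, led by Fosb, with 4.14 in WT, 5.93 in iKD and hence 0.52 as the ratio. In qNSC2 Fosb was 2.53 and 4.12 (0.70, 0.53 to 0.87) and Fos was 15.8 and 21.8 (0.47, 0.40 to 0.54). Female cells made up 48.2% of the WT and 78.5% of the iKD cells of qNSC2. In eNB, with 93.3% female cells in WT and 87.4% in iKD, Dusp1 had the highest ratio at 0.28 (0.21 to 0.35), and Fosb was 7.56 and 7.70.

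Other genes of the same pathways were read from lists. Of 28 other immediate early genes 12 reached the level of 0.5, and 10 of the 12 were at least 2-fold lower in NB, beside 2.21% of all genes tested, with a median log2 of -1.39. Among them Btg2, an antiproliferative gene, was at 6.63 in NB and 26.4 in the other 7 clusters, and Zfp36, which encodes an RNA-decay factor, at 2.77 and 11.2. Rhob, at 12.1 and 17.7, was 1 of the 2 that did not reach 2-fold. Of the 10 that did, not all reached the level of 0.5 in NB itself, so that count is a description. Between genotypes this list did not move with the 10 genes: 4 were higher and 8 lower in iKD, with a median of -0.02. The interval lay above 0 for 2 of the 12, beside 22.9% of all genes, and below 0 for 6, beside 18.9%. Of all genes tested, 54.4% were higher. Btg2 was at 24.6 in WT and 24.5 in iKD, and Btg1 at 6.78 and 6.21.

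AP-1 partners outside the 10 had no common direction in NB. Of 12 such genes 5 were tested, and their median was 0.04 in NB against the other clusters and 0.04 between genotypes. Of the 5, 2 had a lower level in NB and none was at least 2-fold lower. Maf, a leucine zipper transcription factor, was at 8.36 in NB and 7.05 in the other clusters. The MAP kinase, SRF and CREB genes that act upstream had 17 of 25 tested, none at least 2-fold lower in NB, with a median of 0.16. Mapk14, which encodes the kinase p38, was at 2.37 in NB and 2.05 in the other clusters, and Creb1 was at 1.75 and 1.78. In all, 4 of the 17 had a lower level in NB. Activity of the proteins was not measured.

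The other dual-specificity phosphatases of MAP kinases had 4 of 9 tested, all higher in iKD with intervals above 0, beside 22.9% of all genes with such an interval, and a median of 0.19. Dusp3, 1 of the 4, reached the minimum level of 0.5 through iKD alone, where it was higher, so this count is a description. Dusp6, an ERK phosphatase, went from 5.08 to 5.35 (0.07), and Dusp7 from 1.03 to 1.20 (0.22). In NB none of the 4 was 2-fold lower, and Dusp6 had a log2 of -0.78 there.

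Lists of the response to dissociation did not behave as a unit. The 7 heat shock genes tested all had lower levels in iKD, with intervals below 0 and a median ratio of -0.27, beside 18.9% of all genes with such an interval. Hspa8, a chaperone gene, was at 8.56 in WT and 6.93 in iKD. None of the 7 was 2-fold lower in NB. The inflammatory genes had 7 of 10 at least 2-fold lower in NB, beside 2.21% of all genes, with Ccl4 at 0.249 there and 2.19 elsewhere, and a median of -0.03 between genotypes. Levels of 8 of the 9 glucocorticoid response genes were below those of WT in iKD (median ratio -0.18). All 8 had intervals below 0, beside 18.9% of all genes with such an interval. Fkbp5 was at 5.78 in WT and 3.53 in iKD. Of the 9 genes, 3 were at least 2-fold lower in NB, beside the same 2.21%. Nfkbia was on both this list and the inflammatory list. A gene could reach the minimum level through the clusters other than NB alone, as Ccl4 did. The counts of lower genes in NB are therefore a description for both lists. Whether any of these responses had a part in the levels of the 10 genes was not tested.

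Genes most like the 10 were ranked by correlation over cells with their summed log level, as the median of 16 groups of cluster and genotype. As a description, Zfp36 came first among 3815 other genes at 0.259, followed by Btg2 at 0.234, Gm34455 at 0.221, and the Krüppel-like factor genes Klf2 at 0.209 and Klf4 at 0.205. Among the 10, each set against the sum of the other 9, Fos had 0.361, Jun 0.345 and Dusp1 0.294, and Fosl2 had -0.01. Over the means of the 16 groups, which rest mainly on the gap between NB and the rest, Klf6 was highest at 0.972, with Btg2 at 0.967 and Zfp36 at 0.965. The points share library, depth and cluster assignment.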

How the data were processed

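EYFP+ DG cells of 1 WT and 1 iKD library, each from 5 pooled mice, were measured by 10x Genomics 3′ sequencing. Per the labels, the authors used Cell Ranger 7.0.1 and Seurat 4.1.1, and the deposited values are natural log values of counts per 10,000 UMIs plus 1, in 1 table per cluster. The submitters' processing notes name the build GRCh38, although the gene symbols are those of mouse. The stated filter kept 2000 to 5000 genes per cell, as a screen for multiplets and damaged cells, whereas 496 deposited cells had under 2000. No further doublet caller was run.

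From these values UMI counts were recovered: 100% of 32261786 values above 0 came out whole within 0.02. Depth was 44142118 UMIs in WT and 37451839 in iKD, so that counting error is small for all of the genes but Fosl2, and spread between mice is unknown. A gene's level averages its counts per 10,000 UMIs across cells. Ratios between genotypes are log2 with a pseudocount of 0.01, over qNSC1 to NB pooled, and a gene counted as tested where the higher group reached 0.5. Intervals are 95%, exact Poisson for UMIs and exact binomial for shares and ratios. Shares were compared in the 10184 cells with at least 4500 UMIs, thinned to that number. No p-value was computed, because 1 library per genotype gives no replicates and the clusters were made from these genes. Named were all 10 genes and, of each list, up to 6 with the highest levels. Genes most alike were named by rank. The 10 genes, the lists and the motifs were chosen with earlier results of these data known. Counting and ratios were tested on simulated data. Analyses ran in Python 3.11.15 (scipy 1.17.1, pandas 2.3.3, numpy 2.4.6). Alternatives were other scalings, pseudocounts, cluster sets, sexes, cell filters and thinning. Of the alternatives 5 were added after the data were seen, namely the mean of the female and male ratios, a denominator without the 10 genes, and leaving out cells with Xist and Y-linked genes, shared barcodes or NB. The value of a single gene in the list of AP-1 partners is not reported here.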

Additional observations from a re-analysis of the deposited data

Results flagged for a closer look

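Fosb differed between the sexes in the direction of its iKD over WT ratio over the 8 clusters. Female cells had a log2 ratio of -0.107 and male cells of 0.5121, and the difference was not tested, as each genotype is 1 library. Of the female cells, eNB, where Fosb was highest, held 988 of 3044 in WT and 970 of 3549 in iKD. IPC1, where Fosb was low, held 709 and 1013 of them. Whether these shares had a part in the pooled female ratio was not tested. Within the 6 clusters with values for both sexes, the male ratio was the higher in 6, with intervals that did not overlap in 4, among them qNSC2 (0.37 in female and 1.64 in male cells), eNB (0.01 and 0.30) and NB (-0.08 and 1.09). In none of the 7 clusters with a female value did the female interval lie below 0, so that the opposite directions exceeded counting error in the pooled cells alone.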

How the results depend on the processing

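The median log2 ratio of the 10 genes, 0.129 over the 8 clusters pooled, was above 0 in 18 of 18 alternatives. It moved to 0.183 as the mean of the ratios within the 8 clusters, to 0.0699 in female cells and to 0.174 in male cells, and it lay between 0.109 and 0.147 in the others. Fosb turned to -0.107 in female cells pooled, though its female interval lay below 0 in none of 7 clusters. Of 180 alternative values for single genes, 39 moved by more than their counting interval and 140 did not. NB was the lowest of the 8 clusters for all 10 genes in every alternative run but female cells, with 9. The median phi was 0.0727 at full depth, 0.0618 with detection at 2 UMIs, and 0.0571 and 0.0579 in WT and iKD cells. Depth limits Fosl2 most. No paired analysis was possible because each genotype is 1 library.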
